A study of Homo sapiens with 9 samples.

Results

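The 10 genes described here are the FOS genes FOS, FOSB, FOSL1 and FOSL2, the JUN genes JUN, JUNB and JUND, and the immediate early genes EGR1, IER2 and IER3. They are given by a list of symbols, and each was matched to 1 Ensembl gene ID of the count data, so they were 10 of 60880 gene IDs. All 10 passed the filter on low counts in each of the 3 comparisons. SNU5, a cell line established from a human gastric carcinoma, was treated for 24 h before its poly-A RNA was sequenced. The NR group received AuNR-PEG-Ab, a gold nanorod linked through polyethylene glycol (PEG) to ramucirumab, a monoclonal antibody against VEGFR2. The SP group received AuSP-PEG-Ab, the same construct on a gold nanosphere, and the Ab group received ramucirumab alone. All 3 groups, including Ab, carried the antibody at 8 μg/mL, and each had 3 libraries, 9 in all. No library without antibody was analysed here, so each comparison with Ab sets the antibody on a particle against the free antibody in 1 cell line. No library of antibody with PEG but without gold was analysed either, so gold and PEG cannot be told apart. The labels do not say whether the libraries of a group came from separate cultures. The paper calls the replicates of NR and SP biological, and its reporting summary states that in vitro experiments were independently repeated 3 or more times. The p-values measure the spread between these libraries, which may be technical.

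AP-1 is a transcription factor made of a FOS protein paired with a JUN protein, or of a pair of JUN proteins, joined through their leucine zippers. Immediate early genes such as FOS, JUN and EGR1 are transcribed within minutes of a signal from growth factors, stress or contact with foreign material, before any new protein is made, and most of their transcripts are short-lived. In epithelial tumours, AP-1 acts downstream of the MAP kinases ERK, JNK and p38 and drives genes of proliferation, migration and matrix breakdown. FOSL1, which encodes FRA1, is the FOS gene most often associated with sustained ERK signaling.

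By library (1, 2 and 3 of each group), NR held 25735410, 13863155 and 15943980 counts, SP held 21682836, 22914759 and 20601906, and Ab held 19566064, 26318227 and 21031024. Levels are given as CPM, the counts scaled to a common library total and corrected with TMM for differences in composition. The detection floor was set at 3 counts, or 0.114 to 0.216 CPM by library, and the lowest count of any of the 10 genes was 24, for IER3 in NR2. A gene was called when edgeR's quasi-likelihood test gave a Benjamini-Hochberg adjusted p of at most 0.05 over all genes tested and the change was at least 2-fold. NR and SP were both compared with the same 3 Ab libraries, so these comparisons share their controls and are set side by side without a test of their likeness. Library SP1 had the lowest level of FOS, EGR1, JUNB and JUND among the particle libraries and the highest of the gastric mucin gene MUC5AC, so values without it are given for the genes it moved most. In these bulk samples, fewer cells of a type and less RNA per cell cannot be told apart.

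Relative to Ab, FOS and EGR1 rose and FOSB, FOSL1, JUN, IER2 and IER3 fell, with either particle construct. In NR against Ab, 7 of the 10 genes were called, 2 higher and 5 lower, where 22.7% of all 15009 genes tested were called, 12.4% higher and 10.3% lower. In SP against Ab the same numbers were called, where the background over 15068 genes was 23.2%, with 12.6% higher and 10.6% lower. The median log2 fold change of the 10 genes was -1.18 in NR and -1.32 in SP, beside -0.01 over all genes tested in each comparison. At the adjusted p alone, without a fold minimum, 9 of the 10 genes passed in NR (2 higher, 7 lower) and 10 in SP (2 higher, 8 lower). Of all genes, 72.7% passed in NR (36.4% higher, 36.4% lower) and 73% in SP (36.4% higher, 36.6% lower). The ranges of NR and Ab did not overlap for 9 of the genes, 2 higher and 7 lower, and those of SP and Ab for 10, 2 higher and 8 lower. Such a separation was seen for 74.7% of all genes in NR (38.8% higher, 35.8% lower) and 75% in SP (39% higher, 36% lower). JUNB, FOSL2 and JUND were not called in any comparison.

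**Figure D1:**
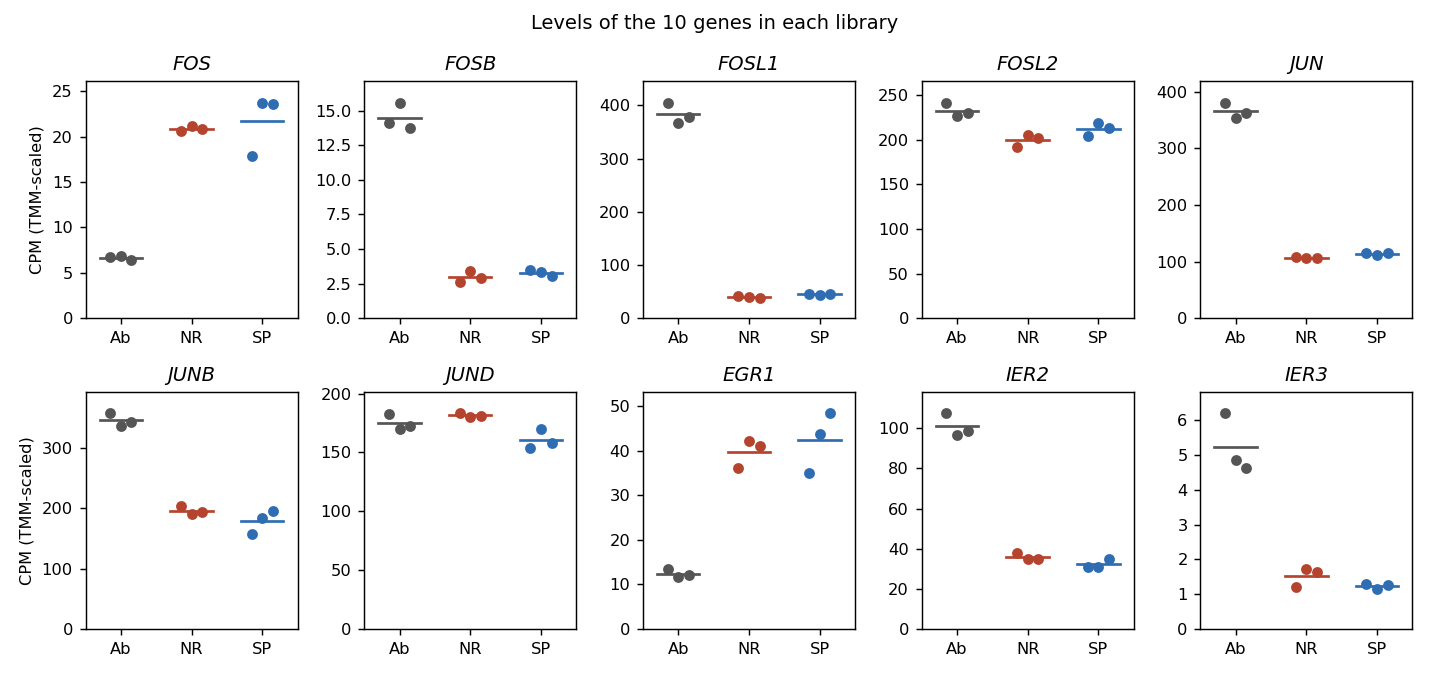
TMM-scaled CPM (y axis, linear, from 0, with its own scale in each panel) of the 10 genes in the 3 Ab, 3 NR and 3 SP libraries. Each point is 1 library and each line is the group mean. FOS and EGR1 are higher in all particle libraries than in all Ab libraries, while FOSL1, FOSB, JUN, IER2, IER3 and JUNB are lower, and JUND in NR overlaps Ab.

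FOSL1 showed the largest change of the 10 genes. It lies on chromosome 11 (65659520 to 65668044, minus strand, GRCh37; ENSG00000175592). It had 41.4, 39.3 and 37.8 CPM in NR libraries 1, 2 and 3 (1058, 547 and 605 counts), 44.8, 43.9 and 45.1 CPM in SP (974, 1006 and 926 counts), against 405.4, 367.7 and 377.4 CPM in Ab (7916, 9750 and 7897 counts). Every particle library was far below every Ab library, with no overlap. The log2 fold change of FOSL1 was -3.30 in NR (SE 0.05, adjusted p = 3.23e-27 with edgeR), a 9.86-fold fall, and -3.13 in SP (SE 0.05, adjusted p = 2.46e-26 with edgeR), an 8.76-fold fall. Among all genes tested, only 3 had a smaller p than FOSL1 in either comparison. Ranked from the lowest log2 fold change, FOSL1 was number 56 of 15009 genes in NR and number 71 of 15068 in SP.

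FOS, the founding member of the family, moved in the opposite direction to FOSL1 and FOSB. FOS (chromosome 14, 75745529 to 75748933, plus strand; ENSG00000170345) had 20.6, 21.1 and 20.8 CPM in NR, 17.8, 23.7 and 23.6 in SP, against 6.76, 6.86 and 6.40 in Ab. All 6 particle libraries were above all Ab libraries, and SP1 was the lowest of the 6. Its log2 fold change was 1.61 in NR (SE 0.10, adjusted p = 2.18e-14 with edgeR) and 1.67 in SP (SE 0.11, adjusted p = 2.64e-13 with edgeR), or 3.06-fold and 3.19-fold. FOSB, whose product can substitute for FOS in AP-1, lies on chromosome 19 (45971253 to 45978437, plus strand; ENSG00000125740). It had 2.62, 3.38 and 2.94 CPM in NR, 3.45, 3.32 and 3.07 in SP, against 14.1, 15.6 and 13.7 in Ab. The particle libraries held 47 to 76 counts of FOSB and the Ab libraries 276 to 413, without overlap. FOSB fell by 2.33 on the log2 scale in NR (SE 0.14, adjusted p = 7.47e-15 with edgeR) and by 2.17 in SP (SE 0.13, adjusted p = 1.12e-14 with edgeR).

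FOSL2, which encodes FRA2, was 1.18-fold lower than Ab in NR and 1.12-fold lower in SP and was not called. This gene (chromosome 2, 28615315 to 28640184, plus strand; ENSG00000075426) had 192.0, 205.6 and 202.3 CPM in NR, 203.8, 218.4 and 212.7 in SP, against 241.4, 226.0 and 230.0 in Ab. The particle libraries were all slightly below the Ab libraries. Relative to Ab, FOSL2 had a log2 fold change of -0.24 in NR (SE 0.05, adjusted p = 2.72e-05 with edgeR) and -0.16 in SP (SE 0.05, adjusted p = 0.00285 with edgeR).

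Among the JUN genes, JUN fell, JUNB was lower by less than 2-fold, and JUND was close to its level in Ab. JUN (chromosome 1, 59242517 to 59249720, minus strand; ENSG00000177606), the main partner of the FOS proteins and a target of JNK, had 107.4, 106.4 and 105.8 CPM in NR, 115.4, 110.8 and 116.0 in SP, against 380.9, 353.2 and 362.4 in Ab. The groups were widely apart, and the spread within each was small, with a coefficient of variation of 0.749% in NR, 2.49% in SP and 3.86% in Ab. The log2 fold change of JUN was -1.80 in NR (SE 0.05, adjusted p = 3.21e-23 with edgeR) and -1.71 in SP (SE 0.05, adjusted p = 7.76e-22 with edgeR), or 3.49-fold and 3.26-fold.

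JUNB, a weaker activator than JUN that can restrain it, lies on chromosome 19 (12902300 to 12904129, plus strand; ENSG00000171223). It had 204.6, 190.2 and 193.8 CPM in NR, 157.1, 183.5 and 196.1 in SP, against 357.8, 336.4 and 344.1 in Ab. Every particle library was below every Ab library, and SP1 was the lowest. Relative to Ab, JUNB had a log2 fold change of -0.84 in NR (SE 0.04, adjusted p = 5.33e-16 with edgeR) and -0.98 in SP (SE 0.06, adjusted p = 2.56e-10 with edgeR), just inside the 2-fold limit. JUNB was called in SP when Ab2, SP2 or SP3 was left out (log2 fold changes of -1.001, -1.003 and -1.04). Without SP1, its log2 fold change in SP was -0.902, and it was not called. Of the exon bases of JUNB, 14.2% lie over the exons of HOOK2 on the other strand, and whether the counting used strand is not given in the sources used here, so reads of the overlap cannot be assigned with certainty.

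JUND, the JUN gene that is typically transcribed in resting cells, lies on chromosome 19 (18390504 to 18392432, minus strand; ENSG00000130522). It had 183.2, 179.7 and 181.1 CPM in NR, 153.7, 169.5 and 157.9 in SP, against 182.2, 169.8 and 172.1 in Ab. NR overlapped Ab, while the highest SP library lay just under the lowest Ab library. Relative to Ab, JUND had a log2 fold change of 0.03 in NR (95% interval -0.06 to 0.12, adjusted p = 0.583 with edgeR) and -0.15 in SP (95% interval -0.25 to -0.05, adjusted p = 0.00901 with edgeR).

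EGR1, a zinc finger transcription factor induced through ERK and the serum response factor, rose by nearly the same amount as FOS. EGR1 (chromosome 5, 137801168 to 137804992, plus strand; ENSG00000120738) had 36.2, 42.1 and 41.1 CPM in NR, 35.1, 43.7 and 48.4 in SP, against 13.4, 11.7 and 12.1 in Ab. All particle libraries were above all Ab libraries, again with SP1 the lowest. The log2 fold change of EGR1 was 1.66 in NR (SE 0.09, adjusted p = 2.76e-16 with edgeR) and 1.75 in SP (SE 0.10, adjusted p = 2.38e-11 with edgeR), or 3.15-fold and 3.37-fold. Without SP1, the log2 fold changes in SP were 1.79 for FOS and 1.86 for EGR1.

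IER2 and IER3, a pair of growth factor-induced genes, fell in both comparisons. IER2 (chromosome 19, 13261225 to 13265725, plus strand; ENSG00000160888), a nuclear regulator of transcription, had 37.9, 35.0 and 34.6 CPM in NR, 30.8, 31.1 and 34.9 in SP, against 107.5, 96.5 and 98.8 in Ab. Its log2 fold change was -1.51 in NR (SE 0.06, adjusted p = 8.88e-19 with edgeR) and -1.67 in SP (SE 0.07, adjusted p = 1.59e-18 with edgeR). IER3 (chromosome 6, 30710976 to 30712325, minus strand; ENSG00000137331), a stress-induced regulator of cell survival, was the gene with the fewest counts, 24 to 31 in the particle libraries and 97 to 129 in Ab. In CPM these were 1.21, 1.73 and 1.62 in NR, 1.29, 1.14 and 1.27 in SP, against 6.20, 4.87 and 4.63 in Ab, without overlap. IER3 fell by 1.84 on the log2 scale in NR (SE 0.21, adjusted p = 6.22e-09 with edgeR) and by 2.11 in SP (SE 0.20, adjusted p = 3.92e-10 with edgeR), with the widest errors of the 10 genes. Antisense genes cover 52.2% of the exon bases of IER2 and 38.9% of those of IER3, where HCG20 and IER3-AS1 lie on the other strand. Reads of these overlaps cannot be assigned with certainty, and the share of counts affected was not measured.

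**Figure D2:**
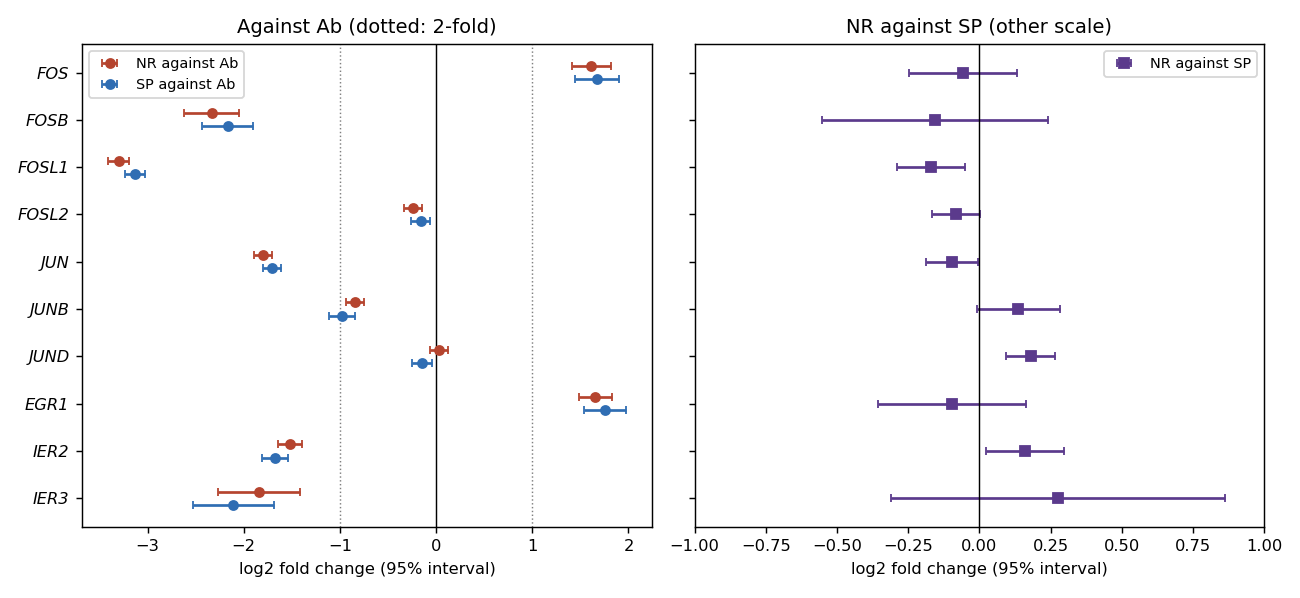
Fitted log2 fold changes of the 10 genes with 95% confidence intervals from edgeR (x axis), for NR and SP against Ab (left, dotted lines at 2-fold) and for NR against SP (right, on a narrower scale). The left panel shows FOS and EGR1 near 1.7, FOSL1 at -3.30 and -3.13 and JUND near 0, and on the right all 10 genes lie between -0.17 and 0.28.

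The rod and the sphere were then compared directly. None of the 10 genes was called in NR against SP by edgeR, where 0.0201% of all 14903 genes tested were called. DESeq2 called none of the 4 to which it gave an adjusted p (FOSL2, JUN, JUNB and JUND) and gave none to the other 6. At an unadjusted p under 0.05 there were 4 of the 10 (FOSL1, JUN, JUND and IER2) with edgeR and 3 with DESeq2, where 12.9% of all genes passed with edgeR. JUND alone passed the adjusted p without a fold minimum, as 0.443% of all genes did, 0.262% higher and 0.181% lower in NR. It was 181.4 ± 1.76 CPM in NR and 160.4 ± 8.20 in SP (mean ± SD, n = 3 each), and all NR libraries were above all SP libraries. The log2 fold change of JUND between the particles was 0.18 (95% interval 0.09 to 0.27, adjusted p = 0.047 with edgeR), or 1.13-fold, and with DESeq2 it was 0.18 (adjusted p = 0.00981). The adjusted p from edgeR rose above 0.05 when any of NR1, NR2, NR3, SP1 or SP3 was left out, reaching 0.161 without SP1 (log2 fold change 0.16).

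FOSL1 and JUN were lower with the rod than with the sphere in every library, but by 1.12-fold and 1.07-fold and without passing the adjustment. For FOSL1 the log2 fold change was -0.17 (95% interval -0.29 to -0.05, adjusted p = 0.194 with edgeR), and for JUN it was -0.10 (95% interval -0.19 to -0.01, adjusted p = 0.352 with edgeR). The groups thus did not overlap for 3 of the 10 genes, 1 higher and 2 lower in NR, where 17.9% of all genes showed this, 8.21% higher and 9.72% lower. For FOS the interval of the difference was -0.25 to 0.13, for EGR1 -0.36 to 0.16 and for JUNB -0.01 to 0.28 on the log2 scale. The rarer FOSB and IER3 had wider intervals of -0.55 to 0.24 and -0.31 to 0.86. Without SP1, the difference of FOS was -0.18 and that of EGR1 -0.21, in place of -0.06 and -0.10, and that of JUNB was 0.057 in place of 0.14. Without SP3, JUNB differed by 0.21 (adjusted p = 0.0537 with edgeR).

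To compare the genes with each other, CPM was divided by the length in kilobases of the annotated canonical transcript. In Ab, FOSL1 was the most abundant of the 10 genes at 225.3 CPM per kb, followed by JUNB at 189.1, JUN at 112.2, JUND at 90.6, IER2 at 47.8 and FOSL2 at 34.6. IER3 at 4.23, EGR1 at 3.94 and FOSB at 3.83 formed a low group in which each overlapped its neighbour, and FOS was lowest at 3.17. With the rod, the order became JUNB at 107.2, JUND at 94.0, JUN at 32.7, FOSL2 at 29.8, FOSL1 at 23.2, IER2 at 17.0, EGR1 at 12.7, FOS at 9.92, IER3 at 1.23 and FOSB at 0.789 CPM per kb, and no neighbours overlapped. On this scale FOSL1 went from the first to the fifth place and FOS from the last to the eighth. With the union of all exons as the length, EGR1 (12.7 CPM per kb) stood above IER2 (11.6) in NR, and likewise in SP (13.5 and 10.5). The order with the sphere was the same, from JUNB at 97.8 to FOSB at 0.868 CPM per kb, but there JUNB overlapped JUND, IER2 overlapped EGR1 and EGR1 overlapped FOS.

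Summed over the 4 FOS genes, the level was 63.7 ± 0.873 CPM per kb in NR, 68.9 ± 2.495 in SP and 267.0 ± 12.6 in Ab (mean ± SD, n = 3 each). The 3 JUN genes summed to 233.9 ± 5.19 in NR, 215.9 ± 13.1 in SP and 391.9 ± 13.6 CPM per kb in Ab. The ratio of the summed FOS genes to the summed JUN genes was 0.272 ± 0.00857 in NR, 0.320 ± 0.00829 in SP and 0.681 ± 0.00850 in Ab. Per kilobase, FOS transcripts were thus outnumbered by JUN transcripts in every group, and more so with the particles.

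Within the FOS family, FOSL1 made up 84.4% ± 0.349 of the summed level in Ab, 36.4% ± 1.66 in NR and 38.1% ± 1.64 in SP. FOSL2 made up 13.0% in Ab and was the largest part with the particles, at 46.8% in NR and 45.7% in SP. FOS went from 1.19% ± 0.0686 in Ab to 15.6% ± 0.114 in NR and 14.9% ± 1.83 in SP, while FOSB had 1.44% in Ab, 1.24% in NR and 1.26% in SP. In the JUN family, JUN took 28.6% ± 0.114 in Ab, 14% ± 0.230 in NR and 16.3% ± 1.21 in SP, JUND took 23.1%, 40.2% and 38.5%, and JUNB was the largest part in each group with 48.3%, 45.8% and 45.2%. Without division by length, JUN was the largest part in Ab (41.2%, beside 39.1% for JUNB). These shares describe transcripts and were not tested.

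**Figure D3:**
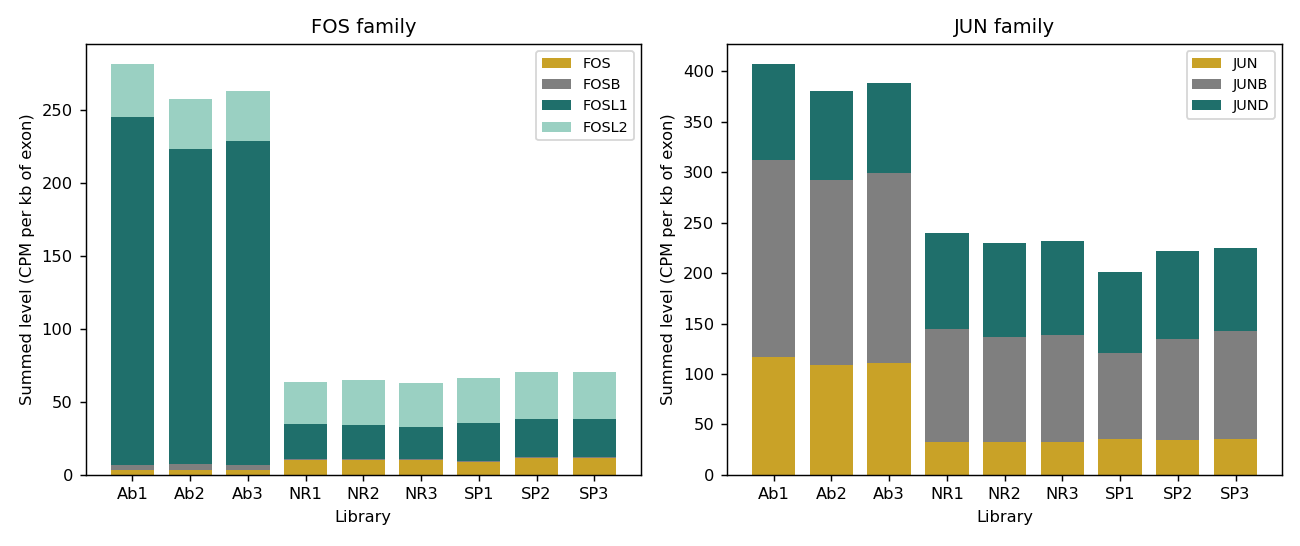
Summed level of the FOS genes (left) and the JUN genes (right) in each library, in TMM-scaled CPM per kb of canonical transcript (stacked bars from 0). The FOSL1 segment is most of the bar in the 3 Ab libraries and is smaller in all 6 particle libraries, where the JUND segment has about the same height as in Ab.

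Promoter sequences were looked up for the 10 genes because their own promoters hold the elements through which they are switched on. RefSeq (GRCh38.p14) gave a promoter of 250 bases before and 50 bases from the start for 8 of the 10, FOS, FOSB, FOSL2, JUN, JUNB, JUND, EGR1 and IER2. The motifs searched on both strands were TGANTCA (which covers the AP-1 site), TGACGTCA (the full cyclic AMP response element), TGACATCA (the variant through which JUN controls itself), TGACG (part of the cyclic AMP response element, and contained in TGACGTCA) and the CArG box, to which the serum response factor binds. The promoters of FOS and EGR1, the genes that rose, and of JUN and FOSB, which fell, are shown 5′ to 3′ on the strand of the gene, with the matches in capitals (CGTCA is TGACG on the other strand).
FOS: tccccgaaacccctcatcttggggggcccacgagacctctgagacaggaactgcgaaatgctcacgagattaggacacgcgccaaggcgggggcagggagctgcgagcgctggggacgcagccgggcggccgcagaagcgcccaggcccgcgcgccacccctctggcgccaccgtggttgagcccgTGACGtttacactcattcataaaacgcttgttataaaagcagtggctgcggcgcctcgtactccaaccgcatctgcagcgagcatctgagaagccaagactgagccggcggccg
EGR1: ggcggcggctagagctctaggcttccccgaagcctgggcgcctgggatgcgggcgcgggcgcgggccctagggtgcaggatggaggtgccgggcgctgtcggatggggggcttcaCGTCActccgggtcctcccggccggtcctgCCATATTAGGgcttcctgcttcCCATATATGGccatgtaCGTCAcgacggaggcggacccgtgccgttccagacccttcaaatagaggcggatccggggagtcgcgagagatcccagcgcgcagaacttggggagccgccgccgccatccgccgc
JUN: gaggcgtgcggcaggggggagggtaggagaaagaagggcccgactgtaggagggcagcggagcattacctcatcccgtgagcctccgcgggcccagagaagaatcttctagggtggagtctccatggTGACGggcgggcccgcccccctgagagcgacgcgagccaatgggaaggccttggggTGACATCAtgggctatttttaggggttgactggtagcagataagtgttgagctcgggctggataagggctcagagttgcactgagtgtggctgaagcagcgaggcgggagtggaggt
FOSB: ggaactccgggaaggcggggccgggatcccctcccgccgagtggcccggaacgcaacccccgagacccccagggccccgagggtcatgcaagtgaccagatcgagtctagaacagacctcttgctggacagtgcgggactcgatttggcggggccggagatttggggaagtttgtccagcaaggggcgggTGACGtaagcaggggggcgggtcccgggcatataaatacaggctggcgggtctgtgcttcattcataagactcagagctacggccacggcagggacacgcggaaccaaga

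These windows are FOS chr14:75278578-75278877 (plus strand), EGR1 chr5:138465229-138465528 (plus strand), JUN chr1:58783998-58784297 (minus strand) and FOSB chr19:45467746-45468045 (plus strand). TGACG was present in all 8 promoters, and in 24.6% of the 35116 promoters of the same length. Its place was close to the start in several of them: the first base was 64 before the start in FOS, 60 in FOSB and 66 in EGR1 and FOSL2. EGR1 held 2 CArG boxes of the searched form, found in 1.29% of all promoters, and none of the other 7 held one within this window. Bases more than 250 before the start were not searched, so a CArG box further upstream in FOS or another gene would be missed. TGACATCA occurred in JUN, with its first base 67 before the start, and in 2.61% of all promoters. TGACGTCA occurred in JUND (1.85% of all) and TGANTCA in FOSL2 (7.71% of all). Genes that rose and genes that fell both held TGACG, and a match describes letters in the window, not binding.

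To find which genes followed the listed ones most closely, the log2 CPM of each gene was centred on its mean and the root mean square difference over the 9 libraries was taken against all other genes, 15471 in all. FOS and EGR1 were each other's nearest gene, at 0.0875 on the log2 scale, with no other gene nearer to either. Among the listed genes, the nearest to JUN was IER2 (0.137), with 86 other genes nearer. FOSL1 was nearest to CPNE7 (0.120), and FOSB to RUNX1 (0.105), a transcription factor gene. The others were nearest to SAMD4B (FOSL2, 0.0219), SMOC1 (JUNB, 0.0276), CDCA4 (JUND, 0.0294) and MAP3K10 (IER2, 0.0505), a kinase gene of the JNK pathway, and IER3 was under the mean of 100 counts needed for this measure. The distances describe 9 libraries in 3 groups, in which every gene with a like difference between particles and Ab lies near, and they have no test.

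The other genes of the pathway were taken from 5 lists. Of 39 other immediate early genes, 36 were tested against Ab, and 1 was called higher and 13 lower with each particle, beside 12.4% and 10.3% of all genes with the rod and 12.6% and 10.6% with the sphere. Their median log2 fold change was -0.71 with the rod and -0.66 with the sphere. PPP1R15A (GADD34), which restores translation after stress, had 45.0 to 47.9 CPM in NR, 47.1 to 51.9 in SP, against 338.8 to 379.1 in Ab. PPP1R15A fell by 2.95 on the log2 scale in NR (adjusted p = 2.98e-26 with edgeR) and by 2.87 in SP (adjusted p = 3.76e-25 with edgeR). Next by mean change among genes averaging 100 counts or more in the higher group were GEM, a small GTPase (-2.18 and -2.24), MAFF, a small MAF factor (-2.07 and -2.03), and GADD45B, a stress sensor upstream of p38 and JNK (-1.99 and -1.79). These log2 fold changes were called in both comparisons, but GEM rests on 8 to 33 counts in the particle libraries. EGR4, a rarer relative of EGR1 named after its values were seen, was also called lower, with larger changes than MAFF and GADD45B (-2.81 in NR and -2.12 in SP) from 2.31 CPM in Ab. BTG2, an antiproliferative gene singled out after its values were seen, was the 1 gene of this list called higher, with log2 fold changes of 1.77 in NR and 1.85 in SP. Together with the 10 genes above, 46 immediate early genes were tested in both comparisons, and 3 of them were called higher (6.52%) and 18 lower (39.1%) in both, where 10.9% and 9.14% of all 14837 genes tested in both were.

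Of 15 other leucine zipper genes, many but not all with products that can pair with FOS or JUN proteins, 11 were tested. None was called higher, and 6 were called lower in NR and 5 in SP, beside 10.3% and 10.6% of all genes, with medians of -1.05 and -0.89. MAFF, given above, had the largest change of this list. With DESeq2 the counts were also 0 higher, with 6 lower in NR and 5 in SP, and at an unadjusted p under 0.05 edgeR passed 8 in NR and 9 in SP, in either direction, near the 74.5% and 74.6% of all genes. ATF3, a stress-induced partner of JUN, went from 95.3 CPM in Ab to 32.5 in NR and 37.9 in SP (log2 fold changes of -1.57 and -1.36). ATF4, the central factor of the integrated stress response, went from 786.3 CPM to 312.8 and 280.2 (-1.35 and -1.51), and MAFG had log2 fold changes of -1.21 and -1.22.

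The 30 kinases and promoter factors upstream of AP-1, among them the RAS and RAF genes, the MAP kinases and the ternary complex factors, were all tested. None was called in either comparison with edgeR or with DESeq2, where edgeR called 22.7% of all genes in NR and 23.2% in SP. The median log2 fold change of the list was -0.04 in both. At a 1.5-fold minimum, the rod gave 3 higher and 6 lower (22.1% and 20.2% of all genes) and the sphere 3 higher and 5 lower (21.9% and 20.5% of all genes). At an unadjusted p under 0.05 there were 19 in NR and 23 in SP, beside 74.5% and 74.6% of all genes tested, and with DESeq2 19 and 21. Every fitted log2 fold change of the list lay between -0.96 and 0.90. MAPK3 (ERK1) had log2 fold changes of 0.90 and 0.85 and MAPK8 (JNK1) of -0.64 and -0.74, both named after their values were seen. The activity of these kinases is not measured by RNA counts.

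Of 17 genes that ERK signaling induces, among them its feedback inhibitors and genes of its output such as CCND1 and ETV5, 15 were tested, and 10 were called lower and none higher in each comparison with edgeR, as with DESeq2, with medians of -1.38 and -1.36, beside 10.3% and 10.6% of all genes called lower. At an unadjusted p under 0.05 edgeR passed 14 in NR and 12 in SP, none of them higher, beside 74.5% and 74.6% of all genes. DUSP4, a nuclear phosphatase of ERK and JNK, had 78.2 to 85.5 CPM in NR, 87.7 to 93.0 in SP, against 371.3 to 385.6 in Ab. Its log2 fold change was -2.25 in NR (adjusted p = 5.46e-25 with edgeR) and -2.10 in SP (adjusted p = 6.22e-24 with edgeR). PHLDA1 (-2.56 and -2.45), the ERK phosphatase gene DUSP5 (-1.84 and -1.73) and ERRFI1, an inhibitor of the EGF receptor (-1.59 and -1.56), were also called lower in both. Without the filter on low counts, 1 gene of the list, SPRY1, was called higher in NR, at a mean of 0.220 CPM against 0.0171 in Ab, close to the floor. ETV4 and CCND1 of the same list, named after their values were seen, were not called (log2 fold changes of -0.07 and -0.07, and of -0.10 and -0.001).

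AP-1 target genes included called genes of both directions. Of 35 on the list, 28 were tested, and 4 were called higher in each comparison while 11 were called lower in NR and 12 in SP, with medians of -0.80 and -0.78. Of all genes tested, 12.4% and 12.6% were called higher, a share close to that of the 4 targets, and 10.3% and 10.6% lower. MMP7, a matrix metalloproteinase of epithelial cells, was called higher. It had 350, 194 and 249 counts in NR, 256, 286 and 255 in SP, against 4, 4 and 3 in Ab, which is at or close to the floor, and its fitted log2 fold changes of 6.37 and 6.14 have little precision for that reason. The others called higher, named after their values were seen, were TIMP1, an inhibitor of metalloproteinases (1.38 and 1.29), CXCL8, a neutrophil-attracting chemokine (1.63 and 1.83), and CAV1, the main protein of caveolae (1.33 and 1.41). Among those called lower, F3, which encodes tissue factor, went from 186.3 CPM in Ab (median of the 3 libraries) to 36.5 to 41.4 in NR and 42.1 to 45.1 in SP. IL11 (-2.58 and -2.78), a cytokine of the IL-6 family, and UPP1 (-2.17 and -2.15), a uridine phosphorylase, were lower as well. The 5 lists overlap in places: 3 of the other immediate early genes also stand in another list. In NR against SP, no gene of the 5 lists was called with edgeR. At an unadjusted p under 0.05, edgeR passed 7 of 35 other immediate early genes, 5 of 11 leucine zipper genes, 2 of 30 upstream genes, 4 of 14 ERK-induced genes and 12 of 28 target genes, beside 12.9% of all genes.

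**Figure D4:**
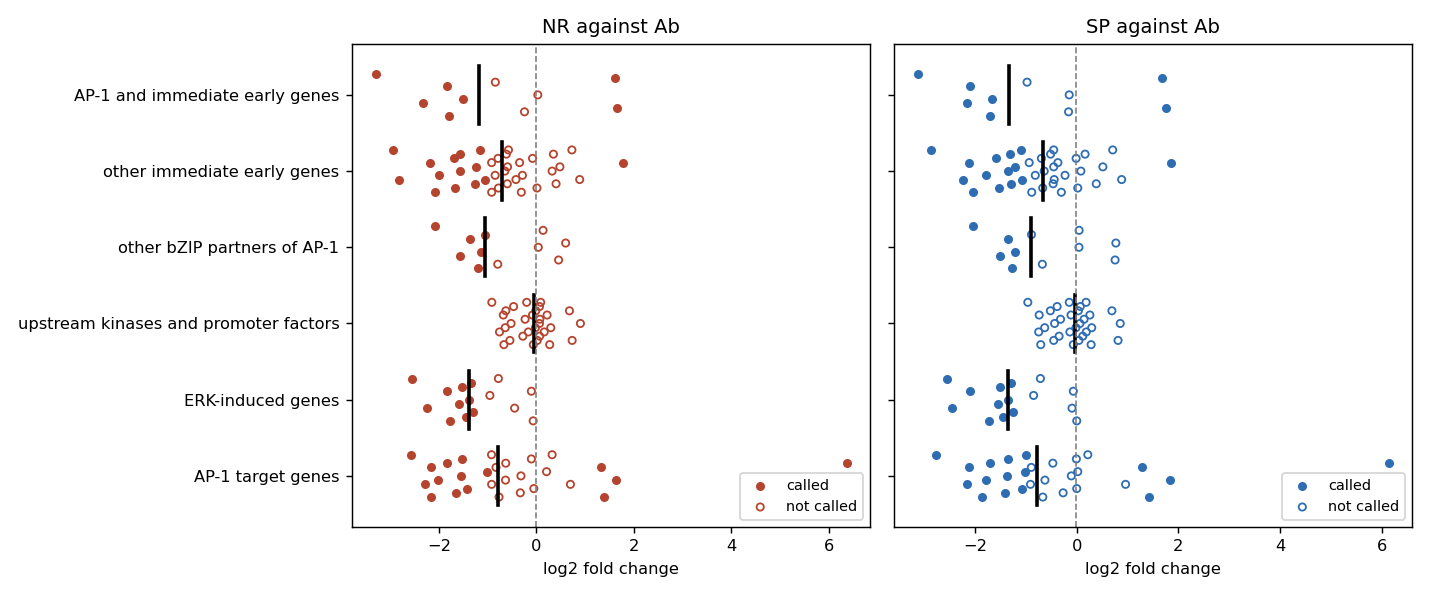
Log2 fold changes (x axis) of the tested genes of each list in NR against Ab (left) and SP against Ab (right). Each point is 1 gene, filled where it was called, and the black bar is the median of the list (dashed line, median of all genes). The ERK-induced genes lie at or below 0 in both panels, the upstream genes are all open points within 1 of 0, and MMP7 stands alone above 6.

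The label of the cells was checked against markers, and several of these moved with the groups. Of 7 epithelial markers, KRT19 and ESRP1 were at or under the floor in all 9 libraries. The summed epithelial level was 2263, 2252 and 2275 CPM in NR, 2397, 2309 and 2328 in SP, against 937.7, 872.5 and 890.3 in Ab, led by KRT8 with group means of 1894, 1982 and 648.0 CPM. CDH1, which encodes E-cadherin, was at 5.68, 6.79 and 0.292 CPM, whereas CLDN4, a tight junction gene, was at 48.8, 49.1 and 45.2 CPM. Gastric markers were present mainly as MUC5AC, a gastric mucin, with means of 25.4 CPM in NR, 33.2 in SP and 109.8 in Ab, and the summed level of the 6 was 25.8, 28.6 and 27.8 in NR, 50.7, 30.8 and 23.9 in SP, against 116.4, 107.3 and 110.1 in Ab. SP1, the library lowest for FOS, EGR1 and JUNB among the particle libraries, was also the highest of them for MUC5AC (48.5 CPM). Among the rarer gastric markers, GKN1 and CLDN18 were higher with the particles, opposite to MUC5AC, while MUC6 was lower, like MUC5AC. In NR, SP and Ab, GKN1 was at 1.22, 0.844 and 0.399 CPM and CLDN18 at 0.568, 0.843 and 0.223 CPM. MUC6 was at 0.0631, 0.0597 and 0.765 CPM. TFF1 never exceeded 4 counts and TFF2 never exceeded 5.

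Markers of other cell types were not equal between groups. With the particles, the summed fibroblast level was above the summed gastric level in every library, and in Ab it was below it. Of 8 leukocyte markers, 5 were at or under the floor in all libraries, including PTPRC, the defining leukocyte gene, and LYZ, which had 0 counts in all 9. Their sum was 5.55, 6.91 and 6.44 CPM in NR, 8.04, 6.72 and 5.95 in SP, against 2.1, 1.43 and 1.43 in Ab, with CSF1R the highest with the particles (3.79 and 4.13 CPM, beside 0.200 in Ab), while CD14 was at 0.256 and 0.141 with the particles and at 0.649 in Ab. Fibroblast markers, led by COL1A1 in SP and Ab and by LUM in NR, summed to 114.9, 109.7 and 106.4 CPM in NR, 113.5, 121.3 and 121.9 in SP, against 45.7, 42.6 and 17.9 in Ab, with all 7 above the floor in at least 1 library. DCN and LUM were at 0.529 and 0.928 CPM in Ab, 19.9 and 37.5 in NR and 21.2 and 38.6 in SP as group means, while COL1A2 was at 7.40, 0.482 and 2.16. The 5 endothelial markers found summed to 23.3, 23.4 and 21.2 CPM in NR, 21.0, 23.0 and 24.3 in SP, against 3.74, 3.77 and 5.16 in Ab, nearly all from CDH5, and TEK and TIE1 were at or under the floor. The mitochondrial share of the counts was 4.36% to 4.66% in the particle libraries and 3.41% to 3.71% in those of Ab. The part of these markers and of the mitochondrial share in the differences of the 10 genes was not tested.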

How the data were processed

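SNU5 libraries were poly-A RNA-seq, 3 per group. The authors filtered the reads, aligned them with HISAT2 2.1.0 and deposited whole read counts per Ensembl gene, without scaling. The genome is stated as hg19 in the paper and as mm9 in the submitters' processing notes. The deposited IDs are human genes, and 59858 of 60880 were found in GENCODE 44 for GRCh37, which gave names, positions and lengths. The counter is named in 2 ways, and strand setting and annotation release are not given in the sources used here.

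The groups were compared in pairs, each from the 6 libraries of the pair, in edgeR 4.0.16 (limma 3.58.1, R 4.3.3) using TMM, filterByExpr (minimum count 10, minimum total 15), the robust quasi-likelihood fit and Benjamini-Hochberg adjustment over all genes tested. The fits were tested on simulated data. DESeq2 1.42.0, other scalings, filters and fold minimums, all 9 libraries in one fit, the replicate block and leaving out each library were alternatives. Python 3.11.15, numpy 2.4.6, pandas 2.3.3 and matplotlib 3.10.9 were used for tables and figures. Within a group, pairs of libraries had a chi-square per gene between 1.84 and 7.43, above sampling noise, so each counted as 1 replicate.

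The genes and lists were chosen with earlier results of these data known. Named were all 10 genes and, per list, up to 4 genes called in both comparisons with Ab in the same direction where the higher group averaged 100 counts or more, by size of change. In NR against SP the listed genes at an adjusted p of at most 0.05 were named. Genes outside this rule are stated as such, or are given as background of a list. One value that this rule would name is not reported here.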

Additional observations from a re-analysis of the deposited data

Results flagged for a closer look

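JUND was singled out because the particles differed from each other by a direct test. Its log2 fold change was 0.03 in NR against Ab (95% interval -0.06 to 0.12, which includes 0) and -0.15 in SP against Ab, and the direct comparison of NR with SP gave 0.18 (SE 0.04, adjusted p = 0.047 with edgeR's quasi-likelihood test, higher in 3 of 3 NR libraries than in any SP library). The difference was 1.13-fold, and the adjusted p over 13 alternatives ran from 0.00868 to 0.161, and was above 0.05 in 8 of them.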

How the results depend on the processing

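For the 10 genes, 130 of 130 log2 fold changes under the alternatives kept their direction and 2-fold call in NR against Ab, 127 of 130 in SP against Ab and 127 of 130 in NR against SP. The side of the adjusted p, taken alone, changed in 0 of 130, 1 of 130 and 8 of the 124 that had one, all for JUND. The 3 calls that changed in SP against Ab were those of JUNB, called without Ab2, SP2 or SP3 as given above, which moved the called genes from 7 to 8. JUND in SP against Ab had an adjusted p of 0.0503 with edgeR without SP3.

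Genes called among all tested went from 3409 to 6348 with a 1.5-fold minimum and to 10916 with none in NR against Ab, and from 3502 to 6385 and 11002 in SP against Ab. At 1.5-fold, other immediate early genes called lower in NR went from 13 to 22 and AP-1 targets from 11 to 17, beside 20.2% of all genes. In SP these went from 13 to 19 and from 12 to 16, beside 20.5% of all genes. Without a fold minimum, 8 of the 10 genes were called lower in SP. In NR against SP, the 3 called genes became 0 with DESeq2, 27 without a filter, 5 at 1.5-fold, 66 without a fold minimum, and 0 to 28 with 1 library left out (0 without NR2, 1 without SP1, 5 without SP3 and 28 without NR1). Of the 10 genes, 1 (JUND, higher) was then called without a fold minimum. Its log2 fold change lost the adjusted p with edgeR in all 9 libraries (0.18, adjusted p = 0.0778), with library totals (0.18, adjusted p = 0.0534) and under the replicate block (0.18, adjusted p = 0.0791), and was 0.16 to 0.22 with 1 library left out. The cause was not tested. Leaving out 1 library turned the direction of differences near 0 in NR against SP, with ranges of -0.18 to 0.011 for FOS (0.011 without SP2, 0.005 without SP3) and -0.21 to 0.008 for EGR1 (0.008 without SP3).

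Shares depend on the length used, as does the ratio of the FOS genes to the JUN genes, which was taken per kilobase of canonical transcript only. Without division by length, FOSL1 was 15% (NR), 15.9% (SP) and 60.2% (Ab) of the FOS family, and JUN 22.0%, 25.2% and 41.2% of the JUN family. On that scale FOSL2 was 75.9%, 75.3% and 36.5% of the FOS family, FOS 7.93%, 7.71% and 1.05%, and FOSB 1.13%, 1.17% and 2.28%. With the union of all exons, an alternative chosen after seeing the data, JUN was 12.8%, 14.9% and 26.5%.

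The replicate numbers did not pair the libraries: deviations of libraries with the same number correlated at -0.0317 to 0.0279 across genes, and the replicate block changed no call of the 10 genes at 2-fold. IER3 and FOSB had the lowest mean counts of the 10 genes and the widest errors in each comparison. With 3 libraries per group and no stated batch, a shared handling effect cannot be told apart from the treatment.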
